A study of Mus musculus with 25 samples.

Results

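The gene expression changes of hippocampal neurons between 3 and 18 months of age were set beside the differences measured after viral manipulation of Ftl1, the gene for the light chain of ferritin. A gene was included when its mean normalized count was at least 10 in both of the tables compared. This kept 13063 of the 24411 genes listed for aging beside overexpression and 1460 for aging beside knockdown, and all 1460 were among the 13063. For every gene the difference between the group means of log2(normalized count + 1) was taken as old minus young (the aging difference), libraries labelled Ftl1OE minus GFP control (the OE difference) and libraries labelled Ftl1KD minus sh-Luc control (the KD difference). Each table was normalized separately, so tests were run within a table and the tables were related only through these differences.

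Nuclei carrying the neuronal protein NeuN were sorted from the hippocampus of male C57BL/6 mice, and their RNA was sequenced in 25 libraries, 1 per mouse. The methods of the study list C57BL/6J animals and, under another supplier, aged C57BL/6 animals, so that age and source cannot be told apart. The aging experiment held 2 libraries from untreated mice of 18 months (Old 2 and Old 3) and 3 from mice of 3 months (Young 1 to 3). In the overexpression experiment, young mice of 3 months received lentivirus in CA1 and the dentate gyrus that carried, behind the neuron-specific synapsin-1 promoter, either Ftl1 followed by eGFP (7 libraries, Ftl1OE) or eGFP alone (5 libraries, GFP control). In the knockdown experiment, aged mice of 18 months received lentivirus in the same regions that encoded a short hairpin RNA against Ftl1 (4 libraries, Ftl1KD) or against luciferase (4 libraries, sh-Luc control).

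The libraries held 7969282 to 9537872 reads in the aging table and 9943996 to 17034325 in the overexpression table. The knockdown table held only 48902 to 97104 reads per Ftl1KD library and 68092 to 358560 per sh-Luc library, and 1460 genes reached a mean of 10 there against 13712 in the aging table and 14099 in the overexpression table. Reads of Rn45s, the precursor of ribosomal RNA, made up 30.3% to 34.5% of the Ftl1KD libraries and 31.9% to 55.3% of the sh-Luc libraries, against at most 6.42% in any library of the other tables. Within the aging table they made up 6.42% and 5.915% of the Old and 3.917%, 4.0% and 2.625% of the Young libraries, which did not overlap, and their part in the aging differences was not tested.

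Ferritin is a shell of heavy and light chains that stores iron inside cells. The heavy chain oxidizes iron and the light chain helps it settle as a mineral core, and iron leaving the shell feeds the heme and iron-sulfur clusters of the mitochondrial respiratory chain. In the hippocampus neurons depend on that chain for most of the energy spent at synapses, and the machinery for it is encoded largely by short, abundant nuclear transcripts, as is the cytosolic ribosome.

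Ftl1 itself (ENSMUSG00000050708.16, minus strand of chromosome 7, 45457944 to 45459884 in GRCm38) was read first, as a check of the labels. Its normalized count was 4247 and 4272 in the Old libraries and 1685, 1925 and 2141 in the Young libraries. Both old libraries lay above all young ones, with an aging difference of 1.16 ± 0.26 (log2, SE from limma, adjusted p = 0.397). DESeq2, run as an alternative, called this difference (adjusted p = 0.000174). In the overexpression table the count ran from 4737 through a median of 5171 to 7663 in the 7 libraries labelled Ftl1OE and was 7315, 4580, 28309, 7415 and 9953 in GFP controls 1 to 5. The libraries labelled Ftl1OE thus held no more Ftl1 than their controls: the groups overlapped, GFP control 3 was the highest of all, and the OE difference was -0.67 (adjusted p = 0.681), or -0.27 without GFP control 3 and -0.10 without GFP controls 3 and 5. In the knockdown table the count was 117, 106, 109 and 140 in Ftl1KD 1, 3, 4 and 5 and 49.1, 45.6, 56.2 and 24.2 in sh-Luc controls 1, 2, 3 and 5. All libraries labelled Ftl1KD lay above all of their controls (KD difference 1.47 ± 0.25, adjusted p = 0.000223). Ftl1 transcript was therefore not higher under the label Ftl1OE and was higher under the label Ftl1KD, against both labels, and the groups are called by their labels from here on, with no claim about the direction in which Ftl1 was moved. These tables hold no protein.

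Fth1, the heavy chain of ferritin, followed Ftl1 in sign. It was counted at 5880 and 6603 in the Old libraries and at 2487, 5103 and 4431 in the Young ones, an aging difference of 0.70 (adjusted p = 0.639), or 0.39 without Young 1. The OE difference was -0.41 (adjusted p = 0.717) with overlapping groups, or -0.19 without GFP control 3 and -0.08 without GFP controls 3 and 5. In the knockdown table it stood at 97.8, 136, 106 and 98.4 in the libraries labelled Ftl1KD and at 74.6, 91.2, 82.4 and 81.1 in the controls, which did not overlap, for a KD difference of 0.40 that did not pass the test (adjusted p = 0.161). Both ferritin chains were thus higher with age, lower in libraries labelled Ftl1OE and higher in libraries labelled Ftl1KD, and of these 6 differences the KD difference of Ftl1 passed the test in limma, and the aging difference of Ftl1 in DESeq2 alone. Over the whole list of ferritin and iron handling genes the signs were mixed, with 10 of 18 higher with age (median 0.157, but -0.237 at the lowest without Old 3 or Young 3), 10 of 20 higher in OE (median -0.0558, but 0.00964 without Ftl1OE 5 and -0.0929 without GFP controls 3 and 5) and 2 of 3 higher in KD.

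Across the genome no gene passed limma at an adjusted p of 0.05 in aging (0 of 13712, 0%) or in OE (0 of 14099, 0%). Before adjustment, limma's p was 0.05 or less, called a nominal p here, for 398 genes (2.9%) higher and 691 (5.04%) lower with age, and for 507 (3.6%) higher and 516 (3.66%) lower in libraries labelled Ftl1OE. On the recovered reads DESeq2 called 138 genes in aging and 91 in OE, and edgeR called 0 in either. In KD, limma called 354 of 1460 genes (24.2%), of which 154 (10.5%) rose and 200 (13.7%) fell in libraries labelled Ftl1KD, and the nominal p took in 256 (17.5%) higher and 302 (20.7%) lower. DESeq2 called 348 and edgeR 420 of them. Without sh-Luc control 5 the limma count was 235. The groups did not overlap for 24.7% of genes in aging, where 2 libraries face 3, for 0.582% in OE and for 23.8% in KD.

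Control libraries 3 and 5 stood apart in the overexpression table. Each library's deviation from the midpoint of its group means was ranked over the 13063 genes and correlated with the aging difference. The midpoint sets the groups apart by construction wherever the 2 differences are related, so that the spread within a group is what these values add. They were -0.166, -0.178, 0.173, 0.0174 and 0.178 for GFP controls 1 to 5. The libraries labelled Ftl1OE gave -0.237 at the lowest, -0.138 at the median and 0.064 at the highest. GFP controls 3 and 5 thus lay farthest in the aging direction, GFP controls 1, 2 and 4 lay among the libraries labelled Ftl1OE, and the groups overlapped. GFP control 3 also held the fewest genes with a read (12281, against 15188 at most in its group) and the most Ftl1, and GFP control 5 the largest share of Rn45s (4.98%), whose part in the results was not tested. The relation, the family medians and the OE differences of named genes are therefore also given without these 2 libraries where this turned the sign or moved the value by over 1.5 times, an alternative chosen after seeing the data. Since they were picked for their place in the aging direction, leaving them out moves the relation upward by construction.

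**Figure D1:**
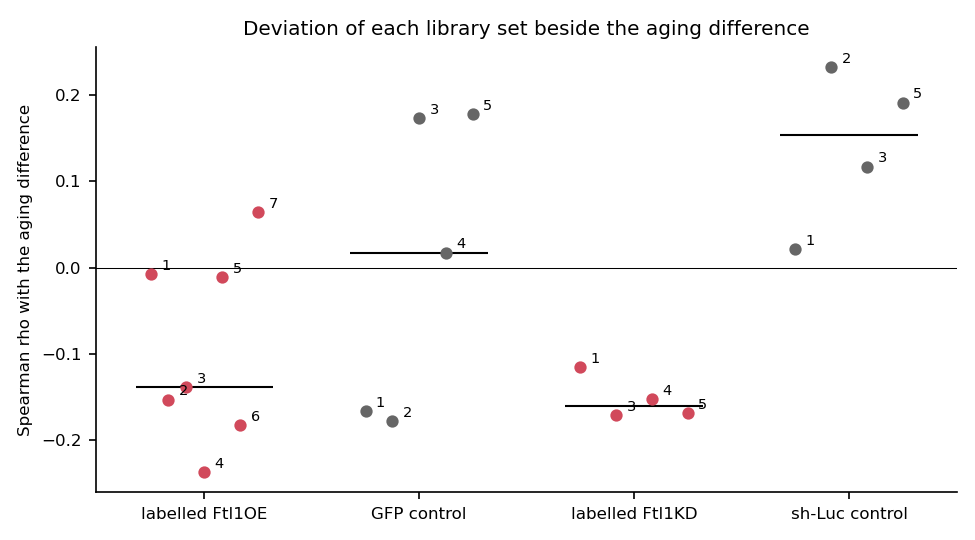
Spearman correlation, across the shared genes, between the aging difference and each library's deviation from the midpoint of its 2 group means (vertical axis), with 1 point per library of the overexpression table (13063 genes) and of the knockdown table (1460 genes). GFP controls 3 and 5 sit at 0.173 and 0.178 and the groups of that table overlap, while the 4 libraries labelled Ftl1KD lie between -0.171 and -0.115, below all 4 sh-Luc controls at 0.0215 to 0.232.

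Over 13063 genes the aging and OE differences were weakly opposed in rank (Spearman rho = -0.155 across genes, which are not independent replicates). They had opposite signs in 7434 genes (56.9%). The largest class was lower with age and higher in libraries labelled Ftl1OE, with 4333 genes (33.2%), followed by 3164 higher in both (24.2%), 3101 higher with age and lower in OE (23.7%) and 2465 lower in both (18.9%). Among the 2439 genes with a difference of at least 0.5 in both experiments, 1540 (63.1%) were opposed, and among the 89 passing the nominal p in both, 75 were opposed (84.3%), 40 of them lower with age and higher in OE and 35 the reverse.

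The opposition was uneven over the range. The decile of genes with the lowest aging differences (median -1.79) had a median OE difference of 0.315, with 65.1% of its genes higher in libraries labelled Ftl1OE, and the next decile 0.246. The 8th and 9th deciles had medians of -0.0466 and -0.0464, and the decile with the highest aging differences (median 1.14) returned to 0.0598, with 53.2% higher. Over all 13063 genes the median OE difference was 0.09, with 57.4% higher. Read from the other side, 402 of the 503 genes lower in OE at the nominal p (79.9%) were higher with age, with a median aging difference of 0.357 (the choice of these genes used all 5 controls), while 255 of the 460 higher in OE (55.4%) were lower with age. For comparison, 48.0% of all 13063 genes were higher with age.

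The relation rested on GFP controls 3 and 5. Without both, rho was 0.077 and 47.1% of the genes were opposed, and among genes with a difference of at least 0.5 in both experiments 878 of 2065 (42.5%) were opposed. Without GFP control 3 alone rho was -0.0756, and without GFP control 5 alone -0.0926.

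**Figure D2:**
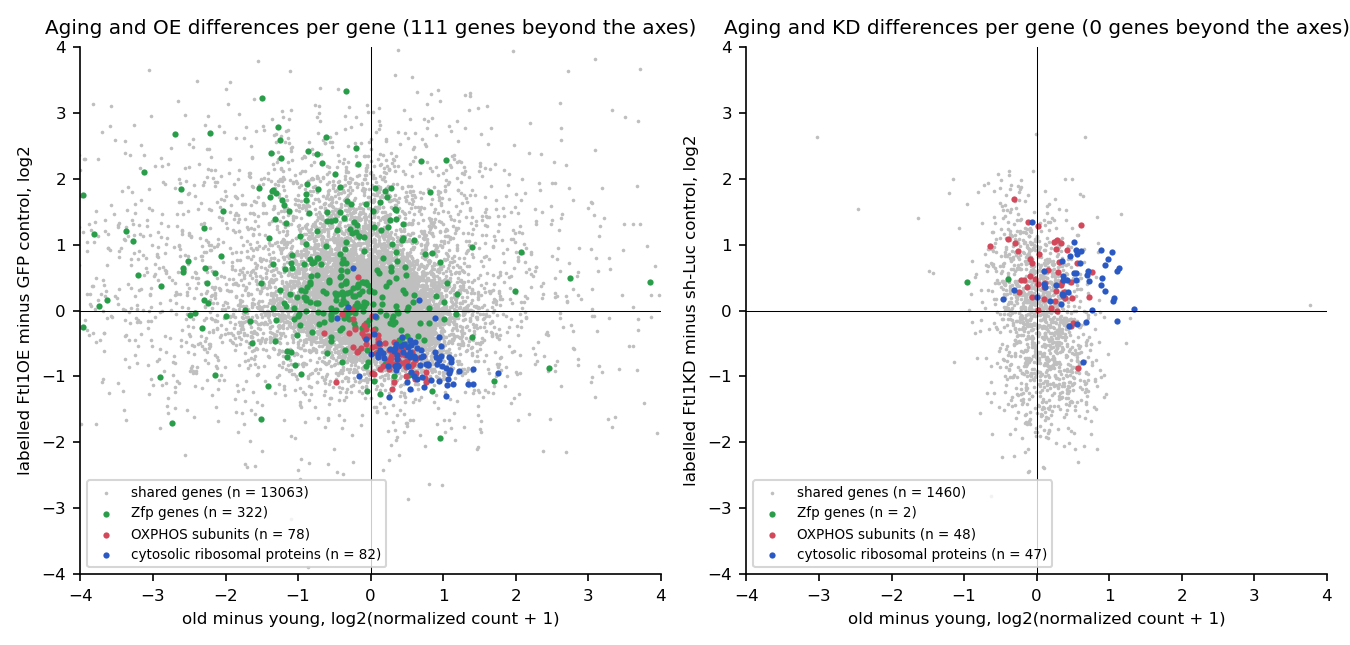
Each point is a gene, with the aging difference on the horizontal axis and the OE difference (13063 genes) or the KD difference (1460 genes) on the vertical axis, both log2. The OXPHOS subunits, the cytosolic ribosomal proteins and the zinc-finger Zfp genes are in colour. The cloud leans weakly downward in both panels (rho = -0.155 and -0.218). The OXPHOS subunits and ribosomal proteins mostly sit at the lower right beside OE and at the upper right beside KD. In the OE panel 111 genes lie beyond the axes.

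A pattern that most members of a family shared was seen in the subunits of oxidative phosphorylation (OXPHOS), which build the respiratory chain and the ATP synthase, and in the proteins of the cytosolic ribosome. Both were mostly higher with age, lower in libraries labelled Ftl1OE and higher in libraries labelled Ftl1KD. Of 78 OXPHOS subunits 59 were higher with age (median 0.27, 1 of them at the nominal p, or 1.28% against 2.9% of all genes), 75 were lower in OE (median -0.658, 57 of them at the nominal p) and 44 of the 48 measured in KD were higher there (median 0.463, 9 rose and 0 fell). Of 83 ribosomal proteins 78 were higher with age (median 0.603, 18 at the nominal p), 79 of 82 were lower in OE (median -0.714, 65 at the nominal p) and 42 of 47 were higher in KD (median 0.456, 4 rose). At the nominal p 73.1% of the OXPHOS subunits and 79.3% of the ribosomal proteins were lower in OE, against 3.66% of all genes. With age 21.7% of the ribosomal proteins were higher at that limit, against 2.9% of all genes. The share that rose in KD was 18.8% of the OXPHOS subunits and 8.51% of the ribosomal proteins, the latter below the 10.5% of all genes. Without GFP controls 3 and 5 the subunits and proteins lower in OE at the nominal p were 25 of 78 and 16 of 82, against 280 of all 14099 genes. All genes tested had medians of -0.0254, 0.0953 and -0.0117. The transcripts of both families were short, with median lengths of 918 and 914 bases against 3230 for all genes, and other genes of like length (between the quartiles of both families, a comparison added after seeing the data) leaned the same way by less. Of these, 684 of 1082 were higher with age (63.2%, median 0.183), 845 of 1176 were lower in OE (median -0.329, or -0.129 without GFP controls 3 and 5) and 80 of 128 were higher in KD (62.5%, median 0.212), against medians of 0.378, -0.698 (-0.356) and 0.456 for both families together. The part of length in the family differences was not tested beyond this.

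Gene by gene, 76 of 82 ribosomal proteins and 59 of 78 OXPHOS subunits were higher with age and lower in libraries labelled Ftl1OE, and 39 of 47 and 29 of 48 were higher both with age and in libraries labelled Ftl1KD. Within the 160 genes of both families rho with OE was -0.538 and 87.5% were opposed. Beside KD the 95 measured were in the same direction in 71.6%, although their rho was -0.161. Among the other 12903 genes rho with OE was -0.143, and among the other 1365 genes of the knockdown table rho with KD was -0.264, with 39.5% in the same direction.

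Summed over its 83 members, the ribosomal family reached 34222 and 35750 normalized counts in the Old libraries and 20937, 28611 and 23739 in the Young ones, which did not overlap. Its 82 members of the overexpression table summed to between 89002 and 132118, with a median of 99944, in the libraries labelled Ftl1OE, and to 144820, 104766, 311722, 149841 and 226333 in GFP controls 1 to 5. GFP controls 3 and 5 were the highest, and GFP control 2 lay inside the range of the libraries labelled Ftl1OE. The 47 members of the knockdown table summed to 1025, 1043, 986 and 1064 in the libraries labelled Ftl1KD, above the 651, 849, 953 and 684 of the controls.

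The OXPHOS subunits summed to 64066 and 77903 in the Old and 53261, 75654 and 69464 in the Young libraries, which overlapped. In the overexpression table they summed to between 202715 and 307685, with a median of 216800, under the label Ftl1OE and to 308119, 223107, 566567, 317301 and 459530 in the controls, where GFP control 2 again lay inside that range. The 48 subunits of the knockdown table summed to 1446, 1356, 1384 and 1384 under the label Ftl1KD and to 771, 1011, 1107 and 801 in the controls, with no overlap. Fewer cells of a type and less RNA per cell cannot be told apart in any of these sums.

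By complex, the subunits of complex I, which takes electrons from NADH, were higher with age in 29 of 37 (median 0.246) and in KD in 14 of 16 (median 0.357, 0.182 without sh-Luc control 1), and lower in OE in 36 of 37 (median -0.641). Complexes II and III, which pass electrons on towards complex IV, showed no direction with age, with 2 of 4 and 5 of 9 higher and medians of -0.0206 and 0.0298, the first of which turned without Old 2 or Young 2 and the second without Old 3 or Young 1. In OE 3 of 4 and 9 of 9 were lower (-0.298 and -0.419, or -0.021 and -0.396 without GFP controls 3 and 5), and in KD 3 of 3 and 7 of 7 were higher (0.899 and 0.481), where 2 of 3 and 1 of 7 rose, the latter 14.3% against 10.5% of all genes. Those of complex IV, which passes electrons to oxygen, had medians of 0.33, -0.8 and 0.396, with 10 of 11 higher with age, 11 of 11 lower in OE and 9 of 9 higher in KD. The ATP synthase, which makes ATP from the proton gradient, was listed with its inhibitor Atpif1, which the 78 OXPHOS subunits include. The listed genes had medians of 0.324, -0.744 and 0.787, with 13 of 17 higher with age, 16 of 17 lower in OE and 11 of 13 higher in KD, 5 of which rose (38.5% of the 13). For the large and small ribosomal subunits the medians were 0.556 and 0.608 with age, -0.718 and -0.712 in OE and 0.386 and 0.603 in KD. In KD 1 of 16 subunits of complex I (6.25%) and 0 of 9 of complex IV rose, below the 10.5% of all genes. Of the large and small ribosomal proteins 1 of 29 (3.45%) and 3 of 18 (16.7%) rose. Without GFP controls 3 and 5 the OE medians shrank to -0.292 for complex I, -0.456 for complex IV, -0.385 for the ATP synthase and -0.369 and -0.363 for the ribosomal subunits, and 70 of 78 OXPHOS subunits and 78 of 82 ribosomal proteins were still lower. No scaling or left-out library turned the sign of the medians of complex I, complex IV, the ATP synthase and the ribosomal subunits, but the aging median was 0.0777 for complex I and 0.21 for complex IV without Young 1 and 0.0848 for the ATP synthase without Old 3, and the KD median was 0.249 for the large ribosomal subunit without Ftl1KD 5 and 0.264 at the lowest for complex IV.

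**Figure D3:**
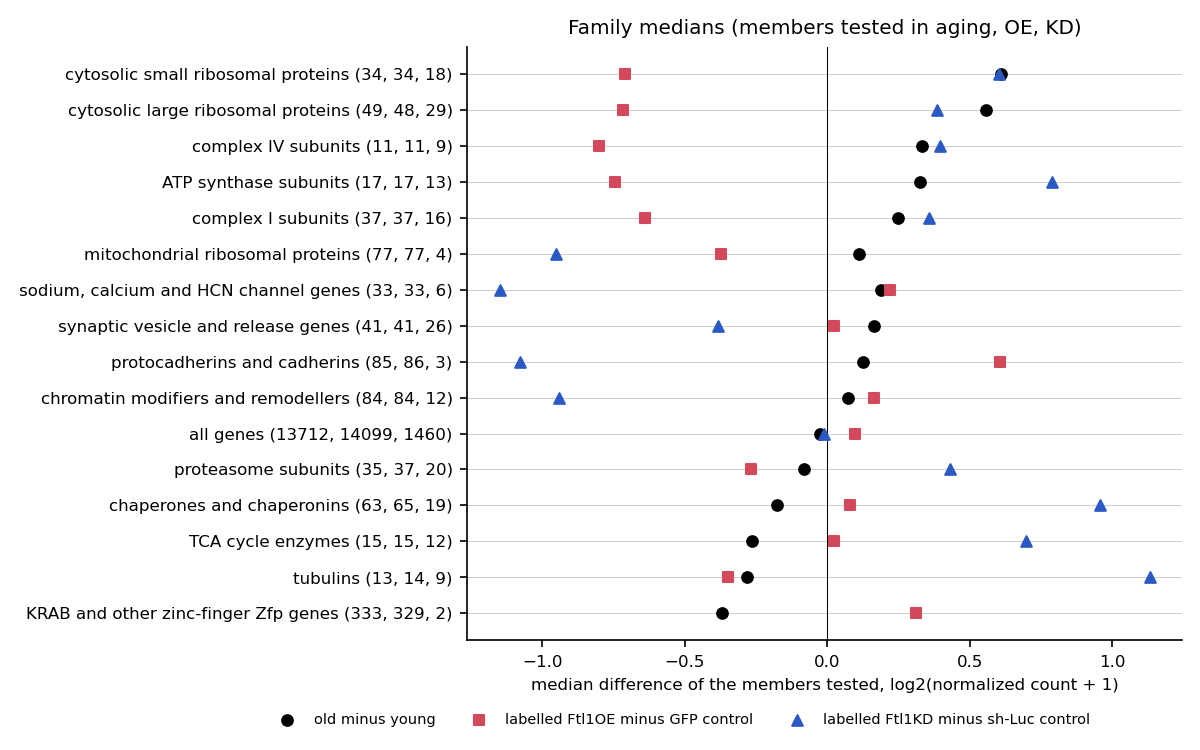
Median difference (log2, horizontal axis) of the tested members of 15 gene families and of all genes, for aging (circles), libraries labelled Ftl1OE (squares) and libraries labelled Ftl1KD (triangles), with the number of members tested in each in parentheses. The ribosomal and OXPHOS families lie right of 0 with age and in KD and left of 0 in OE, and the Zfp genes lie at -0.369 with age and 0.31 in OE, which flips to -0.188 without GFP controls 3 and 5. The aging medians of the chaperones, the chromatin genes and the proteasome flip without Old 2, and that of the mitochondrial ribosomal proteins without Old 3. The OE medians of the chaperones, the tricarboxylic acid cycle enzymes and the synaptic vesicle genes flip under median centring and without some libraries. The OE median of the chromatin genes flips without GFP controls 3 and 5.

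At the level of single genes, Rps29 (ENSMUSG00000034892.8, minus strand of chromosome 12, 69157722 to 69159186), a protein of the small ribosomal subunit, was counted at 275 and 232 in the Old libraries and at 106, 139 and 124 in the Young ones. Under the label Ftl1OE it ran from 457 through 710 to 842, and in GFP controls 1 to 5 it stood at 1395, 1006, 2811, 1143 and 2216. Neither pair of groups overlapped, and the differences were 1.04 with age (adjusted p = 0.614) and -1.30 ± 0.27 in OE (adjusted p = 0.499), or -0.86 without GFP controls 3 and 5. Rps25, of the same subunit, had 572 and 495 against 233, 345 and 281 with age, and 934, 1203 and 1418 as the lowest, median and highest under the label Ftl1OE against 1747, 1443, 3132, 1662 and 2809 in the controls. It too was separated in both tables, at 0.91 and -0.81 (-0.45 without GFP controls 3 and 5), and DESeq2 but not limma called both genes in OE. Cox6a1, a subunit of complex IV, had 1284 and 977 against 895, 869 and 908 with age and 2252, 2506 and 3547 against 4158, 3162, 7968, 4368 and 6271 in OE. Its differences were 0.33 (0.13 without Old 2) and -0.81 (-0.46 without GFP controls 3 and 5), the OE groups overlapped and the KD difference of 0.38 did not pass the test (adjusted p = 0.421).

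Rps2 and Rpsa, also of the small subunit, were higher both with age and in the knockdown table. Rps2 was counted at 2114 and 1902 in the Old and 1291, 1378 and 1299 in the Young libraries, and at 54.7, 57.7, 47.4 and 48.5 under the label Ftl1KD against 28.3, 28.6, 37.4 and 30.1 in the controls. Its aging difference was 0.60, its OE difference -0.69 (-0.19 without GFP controls 3 and 5) and its KD difference 0.73 (adjusted p = 0.0312). Rpsa had 1227 and 1119 against 495, 755 and 603 with age (0.94) and 44.1, 58.6, 51 and 57.3 against 31.1, 30.3, 35.6 and 32.2 in KD (0.69, adjusted p = 0.0397). All groups of both genes were separate in these 2 tables. The OE difference of Rpsa was -0.41 and turned to 0.10 without GFP controls 3 and 5. The calls were fragile at this depth: without any of Ftl1KD 1, Ftl1KD 3, Ftl1KD 5, sh-Luc 1, sh-Luc 2 or sh-Luc 5 the adjusted p of Rps2 lay between 0.0545 and 0.0969 (range over all settings 0.0132 to 0.197), and without any of Ftl1KD 3, Ftl1KD 4, Ftl1KD 5, sh-Luc 1, sh-Luc 2 or sh-Luc 5 that of Rpsa lay between 0.0631 and 0.119 (0.0222 to 0.237). The large subunit members picked by abundance were Rpl3 and Rpl4. Rpl3 had differences of 0.43 with age (0.23 without Young 1), -0.40 in OE (-0.05 without GFP controls 3 and 5) and 0.29 in KD. Rpl4 did not follow its family, at 757 and 1273 against 901, 1652 and 1211 with age (-0.31, a sign that turned without Old 2), 0.06 in OE (-0.28 without GFP controls 3 and 5) and 0.31 in KD. None of these 6 differences passed the test.

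Atp5b, the catalytic beta subunit of the ATP synthase, rose in KD under every setting tried, with 223, 224, 253 and 239 under the label Ftl1KD against 114, 129, 129 and 92 in the controls (1.02, adjusted p = 0.000541). With age it did not follow its family, at 3411 and 5280 against 3673, 7132 and 5384, an aging difference of -0.30 whose sign turned without Old 2 (0.0206). Atp5a1, the alpha subunit, was also not higher with age (2731 and 3975 against 3084, 3936 and 3581, -0.09, which turned without Old 2). It rose in KD (93, 120, 107 and 112 against 51, 52.4, 101 and 54.3, 0.79, adjusted p = 0.0158, but 0.0578 without Ftl1KD 3, lost also with no filter and with the replicate block, with 0.00084 to 0.122 over all settings), where sh-Luc 3 lay inside the Ftl1KD range, and its OE difference was -0.21 (-0.08 without GFP controls 3 and 5). Sdha, the flavoprotein of complex II, was likewise not higher with age (1994 and 2746 against 2089, 3429 and 3039, -0.25, or -0.02 without Old 2). In KD it stood at 38.4, 39.7, 25.5 and 39.7 against 18.9, 27, 15 and 15, where Ftl1KD 4 overlapped with sh-Luc 2 (0.90, adjusted p = 0.0256). That call was lost without any of Ftl1KD 1, Ftl1KD 3, Ftl1KD 5 or sh-Luc 5, with adjusted p between 0.0651 and 0.0816 (0.0149 to 0.13 over all settings).

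None of the following subunits, also picked by abundance, passed the test in limma with all libraries. Ndufv1 of complex I had an aging difference of 0.20, which turned without Young 1, an OE difference of -0.49, which turned to 0.01 without GFP controls 3 and 5, and a KD difference of 0.04, which turned without Ftl1KD 1 or 3 or sh-Luc 3 or 5. Sdhb of complex II had -0.07 with age (which turned without Old 2 or Young 2), -0.51 in OE (-0.06 without GFP controls 3 and 5) and 0.71 in KD. Cyc1 and Uqcrc1 of complex III had small differences with age (-0.06 and -0.02). Both signs turned without Old 2, and that of Uqcrc1 also without Young 2 or Young 3. Their OE differences of -0.28 and -0.38 turned to 0.21 and 0.14 without GFP controls 3 and 5. Cox4i1 of complex IV had 0.29 with age (0.13 without Young 1), -0.66 in OE (-0.14 without GFP controls 3 and 5) and 0.58 in KD (adjusted p = 0.0923).

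Since members of these families shared a direction, the 250 bases before the annotated start of their genes were read from RefSeq promoter windows (build GRCm38.p6) and searched on both strands for CCGGAAG and for a run of 10 letters, GCGC followed by A, any base and GCGC again. Of 78 OXPHOS subunits 66 had a window, and the run of 10 letters was found in 13 of them (19.7%), against 3.86% of all 27025 windows and 8.4% of the 10412 windows of the genes shared by aging and OE. CCGGAAG was found in 11 OXPHOS windows (16.7%), against 7.05% and 13.5%. Of 82 ribosomal proteins 61 had a window, with CCGGAAG in 18 (29.5%) and the run of 10 letters in 1 (1.64%). Windows were found for 74.4% of the ribosomal proteins and 79.7% of the shared genes, which leaves the comparison of these shares void, so that they are counts only. A match is a run of letters in the window and nothing more. The windows of Cox6a1 (chr5:115348959-115349208, minus strand), Sdha (chr13:74350241-74350490, minus strand), Rps25 (chr9:44407464-44407713, plus strand) and Rps2 (chr17:24719813-24720062, plus strand) are shown 5′ to 3′ as examples, among the genes named above, of windows that hold a match and end within 50 bases of an annotated transcript start, with the matches in capitals (CTTCCGG is CCGGAAG on the other strand).
Cox6a1: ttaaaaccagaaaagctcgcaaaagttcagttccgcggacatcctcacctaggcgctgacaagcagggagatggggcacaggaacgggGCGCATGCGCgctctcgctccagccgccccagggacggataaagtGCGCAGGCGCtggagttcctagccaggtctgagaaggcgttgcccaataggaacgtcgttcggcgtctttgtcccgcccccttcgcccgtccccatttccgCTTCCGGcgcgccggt
Sdha: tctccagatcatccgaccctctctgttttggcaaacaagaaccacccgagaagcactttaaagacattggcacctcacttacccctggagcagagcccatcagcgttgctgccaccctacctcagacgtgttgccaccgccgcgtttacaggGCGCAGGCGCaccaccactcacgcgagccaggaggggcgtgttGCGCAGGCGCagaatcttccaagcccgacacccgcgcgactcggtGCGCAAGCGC
Rps25: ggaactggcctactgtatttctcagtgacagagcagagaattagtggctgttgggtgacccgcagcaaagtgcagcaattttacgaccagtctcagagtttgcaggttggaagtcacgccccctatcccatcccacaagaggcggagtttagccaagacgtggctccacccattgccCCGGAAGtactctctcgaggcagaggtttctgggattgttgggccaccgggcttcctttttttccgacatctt
Rps2: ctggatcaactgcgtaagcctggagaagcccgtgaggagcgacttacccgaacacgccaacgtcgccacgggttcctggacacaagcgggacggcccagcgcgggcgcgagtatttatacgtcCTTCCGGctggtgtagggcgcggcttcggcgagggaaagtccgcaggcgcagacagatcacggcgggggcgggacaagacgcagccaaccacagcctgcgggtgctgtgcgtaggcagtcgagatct

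The Zfp genes, a large group of zinc-finger proteins that mostly bind DNA, ran the other way. With age 99 of 333 were higher and the median was -0.369. At the nominal p 43 were lower and 3 higher (12.9% and 0.901%, against 5.04% and 2.9% of all genes). In OE 227 of 329 were higher (median 0.31), where 17 passed the nominal p as higher, 5.17% against 3.6% of all genes, and 4 as lower, and 165 of the 322 shared were lower with age and higher in libraries labelled Ftl1OE. Their summed counts were 90119 and 83742 in the Old libraries against 116229, 99309 and 101462 in the Young ones, with no overlap. In OE the direction rested on GFP controls 3 and 5, whose median deviations were -0.903 and -0.719: without both, 115 of the 322 were higher and the median turned to -0.188. Zfp207, with the highest mean count of those measured in all 3 tables, had 1266 and 1795 in the Old libraries against 2925, 3092 and 2760 in the Young ones (-0.95, called by DESeq2 with an adjusted p of 0.027 but not by limma). In OE it ran from 933 through 1616 to 2081 against 1920, 2135, 1025, 1663 and 373, overlapping groups whose difference of 0.32 turned negative without GFP control 5. Zfp706, the next by abundance, had -0.40 with age (-0.18 without Old 2) and 0.28 in OE, which turned to -0.20 without GFP controls 3 and 5.

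Mitochondrial ribosomal proteins, which translate the proteins encoded by mitochondrial DNA, were higher with age in 50 of 77 (median 0.11, but -0.0538 without Old 3) and lower in OE in 69 of 77 (median -0.372, -0.184 without GFP controls 3 and 5). Unlike the OXPHOS subunits, the 4 measured in KD were all lower there (median -0.954). Of these Mrpl41 alone fell, a call lost without Ftl1KD 3 or sh-Luc 1 (adjusted p = 0.0681 and 0.0635). The proteins of mitochondrial import were higher with age in 18 of 24 (0.209, or 0.093 at the lowest without 1 library) and lower in OE in 21 of 24 (-0.371, -0.0823 without GFP controls 3 and 5). Tubulins, the subunits of microtubules, went the same way in both, with 12 of 13 lower with age and in libraries labelled Ftl1OE (medians -0.283 and -0.325). Without Old 2 the aging median was -0.0362. Without GFP controls 3 and 5 the OE median was -0.00318, and 7 of the 13 were lower. Chromatin modifiers and remodellers were higher in both in 36 of 84, and their medians were small (0.0709 and 0.162) and turned with age without Old 2 (-0.125) and in OE without GFP controls 3 and 5 (-0.00931). Protocadherins and cadherins, which hold neurons to each other, were higher in both in 34 of 84, with medians of 0.125 with age (0.0459 without Young 3 and 0.389 without Old 2) and 0.606 in OE, the latter 0.0187 without GFP controls 3 and 5. At the nominal p 10 of the 86 measured in OE were higher (11.6%, against 3.6% of all genes) and 0 lower. Without GFP controls 3 and 5, 7 were higher and 3 lower, against 517 and 280 of all 14099 genes.

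The proteasome, which breaks down tagged proteins, was lower in OE in 28 of 37 (median -0.27, -0.123 without GFP controls 3 and 5), and its aging median (-0.084, 14 of 35 higher) turned without Old 2 (0.214). The glycolytic enzymes had 12 of 16 higher with age (0.0971, but -0.116 at the lowest without Old 3 or Young 1) and 14 of 16 lower in OE (-0.291, but 0.0351 without GFP controls 3 and 5). Peroxiredoxins and other antioxidant genes were higher with age in 10 of 22 (median -0.0263, which turned without Old 2 or any of the Young libraries) and lower in OE in 14 of 22 (median -0.206, or -0.116 at the smallest without 1 library).

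In 24 genes the groups overlapped in neither the aging nor the overexpression table (0.184% of 13063, against 0.146% for the product of the shares in the 2 tables), and 18 of these were opposed, 16 of them higher with age and lower in libraries labelled Ftl1OE. Apart from the ribosomal proteins these included Sst, which encodes the neuropeptide somatostatin of inhibitory interneurons (ENSMUSG00000004366.4, minus strand of chromosome 16, 23889573 to 23890958). Sst was counted at 1127 and 1166 in the Old and 598, 753 and 871 in the Young libraries. Under the label Ftl1OE it ran from 1708 through 1879 to 2370, and in the controls it stood at 2518, 3382, 8165, 2456 and 4125, for differences of 0.65 and -0.94 (adjusted p = 0.618 and 0.499), the latter -0.51 without GFP controls 3 and 5. Pcsk1n encodes proSAAS, an inhibitor of a prohormone convertase. It had 3375 and 2865 against 1303, 1985 and 1886 with age (0.88) and 3049, 3951 and 5931 against 5583, 4626, 12939, 6843 and 10616 in OE (-0.88, or -0.46 without GFP controls 3 and 5), where the groups overlapped.

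The 2 genes lower with age and higher in OE with no overlap in either table were Susd6 and Mterf1a. Susd6 (ENSMUSG00000021133.9, plus strand of chromosome 12, 80790510 to 80880835) had 622 and 392 in the Old against 753, 834 and 760 in the Young libraries. It ran from 1328 through 1701 to 1974 under the label Ftl1OE against 1025, 1100, 952, 1038 and 699 in the controls, so that it differed by -0.66 (-0.33 without Old 3) and 0.81 ± 0.18. Mterf1a, a mitochondrial transcription termination factor, had 14.8 and 20.2 against 62.2, 27.6 and 95.8 with age, and 87.7, 110 and 209 as the lowest, median and highest under the label Ftl1OE against 75, 86.1, 0, 55.1 and 0 in the controls. The zeros were those of GFP controls 3 and 5, and without them its OE difference of 3.21 was 0.75.

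A further 4 genes were higher in both with no overlap, among them Trabd, Sox12 and Kansl3. Kansl3, a subunit of a histone acetyltransferase complex, had 1116 and 1190 against 900, 883 and 995 with age (0.32). Its lowest, median and highest count under the label Ftl1OE were 822, 944 and 1253, against 527, 648, 407, 784 and 543 in the controls (0.80). Sox12, a transcription factor of the Sox family, had 359 and 317 against 141, 276 and 240 with age (0.68, or 0.39 without Young 1) and 127, 167 and 343 against 65, 61.5, 28.4, 108 and 83.5 in OE (1.54). Trabd had 447 and 514 against 401, 266 and 262 with age (0.66) and 710, 792 and 1545 against 604, 506, 337, 695 and 659 in OE (0.64). In all 3 genes every old library exceeded every young one and every library labelled Ftl1OE every control.

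Among those lower in both was Hist3h2a, a histone H2A gene, which had 274 and 269 against 275, 282 and 311 with age (-0.09) and 295, 378 and 422 against 471, 487, 1362, 500 and 548 in OE (-0.73, or -0.40 without GFP controls 3 and 5). With age Old 2 and Young 1 all but met. None of the genes named beside OE passed the adjusted test in limma in aging or OE, the smallest adjusted p in OE being 0.499. DESeq2 called Rps29, Rps25, Sst, Susd6, Pcsk1n, Kansl3 and Cox6a1 in OE.

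**Figure D4:**
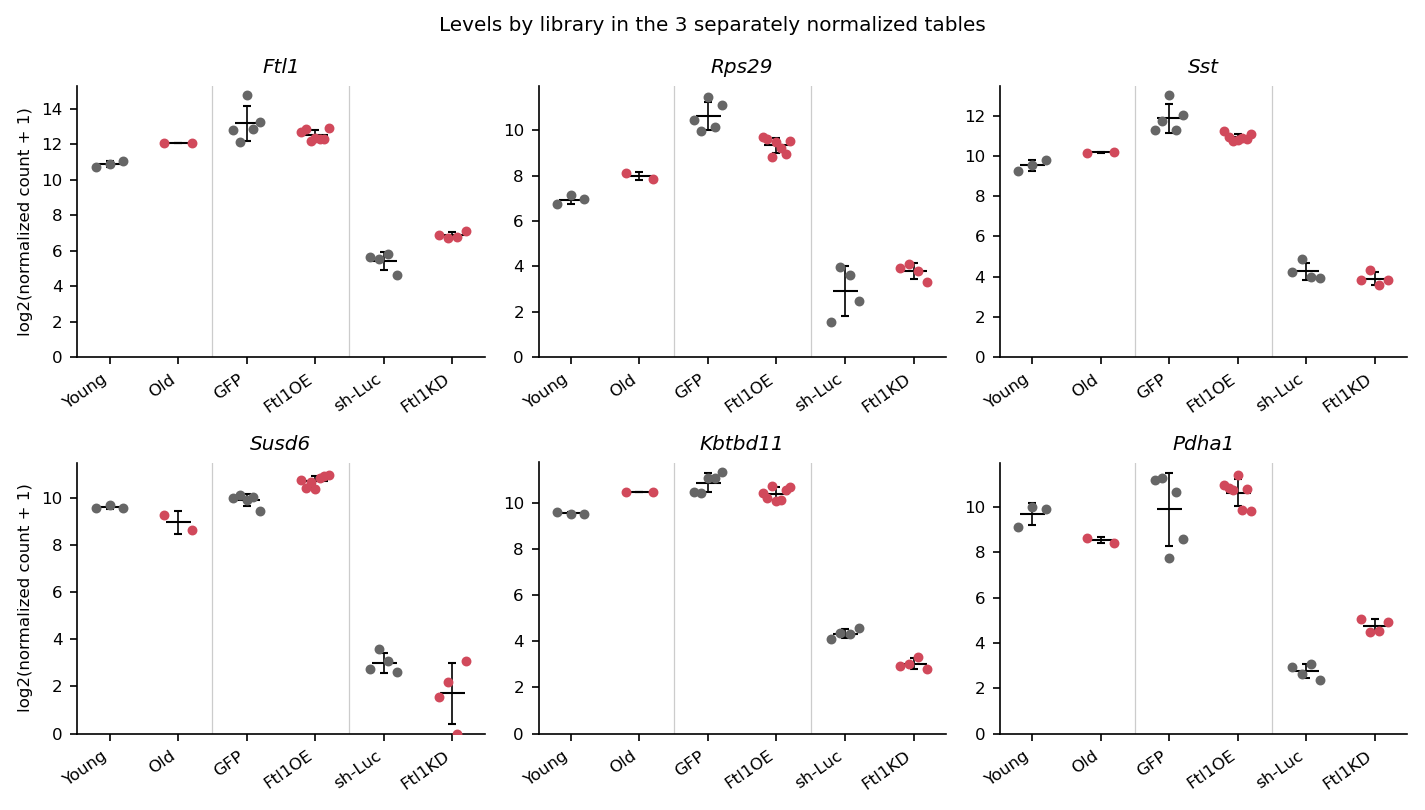
Normalized counts on a log2(count + 1) axis of Ftl1, Rps29, Sst, Susd6, Kbtbd11 and Pdha1 in each library of the 3 tables, 1 point per library with the mean and SD of the log2 values of each group. Rps29 and Sst lie higher in both Old libraries than in the Young ones and lower in all 7 libraries labelled Ftl1OE than in the 5 GFP controls, and Ftl1 lies higher in the 4 libraries labelled Ftl1KD than in their controls.

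Over the 1460 genes of the knockdown table the aging and KD differences were also opposed in rank (Spearman rho = -0.218 across genes, again not independent replicates), with opposite signs in 853 genes (58.4%). Of all genes 475 (32.5%) were higher with age and lower in libraries labelled Ftl1KD, 378 (25.9%) the reverse, 344 (23.6%) higher in both and 263 (18.0%) lower in both. With a difference of at least 0.5 in both, 122 of 172 genes were opposed (70.9%), and passing the nominal p in both, 32 of 45 (71.1%), of which 26 were higher with age and lower in KD. The decile of genes lowest with age had a median KD difference of 0.436, with 70.5% higher, and the 9th and 10th deciles had medians of -0.252 and -0.246, with 29.5% and 37.7% higher. On these same 1460 genes the rho of aging with OE was -0.331.

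**Figure D5:**
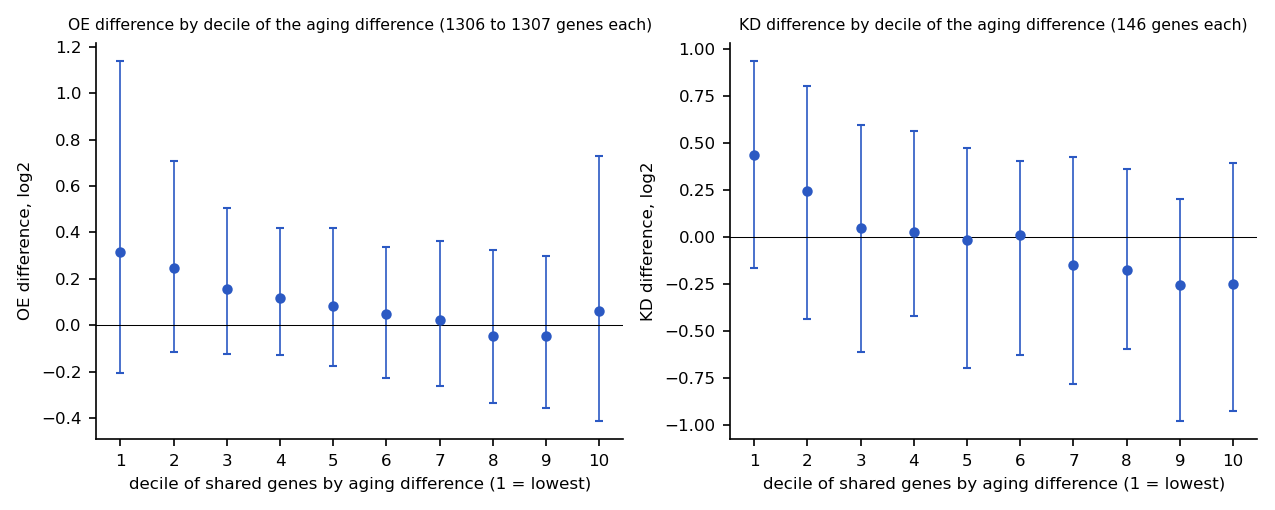
Median OE difference (13063 genes) and KD difference (1460 genes) in each decile of the aging difference, from the lowest (1) to the highest (10), with bars from the lower to the upper quartile, all log2. The OE medians run from 0.315 in decile 1 to -0.0464 in decile 9 and 0.0598 in decile 10, and the KD medians from 0.436 to -0.252 and -0.246.

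The genes called in KD leaned the same way. Of the 154 that rose in libraries labelled Ftl1KD, 108 (70.1%) were lower with age, with a median aging difference of -0.184. Of the 200 that fell, 134 (67.0%) were higher with age, with a median of 0.142. Without Old 2 these counts were 58 of 154 and 108 of 200, and without Old 3 they were 120 and 143. Of all 1460 genes 56.1% were higher with age. In library alignment, where the midpoint itself sets the groups apart, the 4 libraries labelled Ftl1KD lay at -0.115, -0.171, -0.152 and -0.169 and the sh-Luc controls at 0.0215, 0.232, 0.117 and 0.191, with no overlap.

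On the aging side the relation rested on Old 2. Without it rho was 0.0273 and 49.2% of the genes were opposed, and of the genes with a difference of at least 0.5 in both, 128 of 246 (52.0%) were. Without Old 3 rho was -0.324 and 238 of 306 (77.8%) were opposed.

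Several families held genes lower with age and higher in libraries labelled Ftl1KD. The share that rose there, 10.5% of all genes, was 52.6% of the chaperones, 55.6% of the tubulins, 57.1% of the cholesterol enzymes and 36.4% of the Rab genes. It was 33.3% of the enzymes of the tricarboxylic acid cycle, listed together with pyruvate dehydrogenase. Chaperones and chaperonins, which fold proteins, were higher in KD in 19 of 19 (median 0.956, 10 rose), and 16 of these were lower with age. They summed to 987, 979, 936 and 933 under the label Ftl1KD against 543, 653, 657 and 446 in the controls, with no overlap. With age all 63 chaperones measured had a median of -0.177, which turned to 0.0451 without Old 2, when 9 of the 19 were opposed. In OE 42 of 65 were higher (median 0.0795), a sign that turned under median centring (-0.0158), without GFP control 5 and without GFP controls 3 and 5. Hspa8, the constitutive heat shock protein 70, had 12322 and 18949 in the Old against 18825, 26514 and 28082 in the Young libraries, overlapping between Old 3 and Young 1 (-0.66, but -0.35 without Old 2 and -0.97 without Old 3). In KD it stood at 319, 335, 352 and 313 against 185, 214, 217 and 99.5 and rose by 0.94 (adjusted p = 0.00278), a call that held in all settings tried. Hsp90ab1, the next by abundance, differed little in all 3 tables, with 9765 and 11552 against 8063, 13257 and 12363 with age (-0.05), -0.15 in OE and 199, 172, 142 and 116 against 113, 186, 182 and 148 in KD (0.00, adjusted p = 0.998). Its aging difference grew without Young 1 and turned without Old 2, Young 2 or Young 3.

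Tubulins were higher in KD in 8 of 9 (median 1.13, 5 rose), and 7 of the 9 were lower with age, but 3 of 9 without Old 2. Tuba1a had 617, 686, 665 and 710 under the label Ftl1KD against 242, 217, 208 and 141 in the controls (1.75, adjusted p = 1.01e-06), and 4873 and 7208 against 5976, 6903 and 6465 with age (-0.12, a sign that turned without Old 2). Tubb2a rose in KD by 1.13 (227, 221, 257 and 244 against 113, 125, 110 and 85.7, adjusted p = 0.000253), and with age had 5064 and 6096 against 5195, 8886 and 7531 (-0.34, or -0.17 without Young 2). Both tubulins were separate between the KD groups and overlapped between the ages. The CRMP and stathmin genes, which regulate microtubules in growing neurites, were higher in KD in 7 of 7 (median 1.67, 6 rose), with no direction in aging (4 of 9 higher).

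Enzymes of the tricarboxylic acid cycle, which feeds electrons to the respiratory chain, were listed together with Pdha1 and Pdhb of pyruvate dehydrogenase. They were lower with age in 11 of 15 (median -0.265, -0.0773 without Old 2) and higher in KD in 11 of 12 (median 0.695, 4 rose), with 7 of 12 opposed. In OE their median was 0.0224, a sign that turned under median centring and without several libraries. Cholesterol biosynthesis enzymes were higher in KD in 7 of 7 (median 1.09, 4 rose), of which 6 were lower with age, or 0 without Old 2. Over all 19 of these enzymes measured with age 11 were lower, and their median of -0.0197, close to the -0.0254 of all genes, turned without Old 2 or Young 3. Rab genes, the small GTPases of vesicle traffic, were higher in KD in 8 of 11 (median 0.506, 4 rose), with 7 of 11 lower with age and higher in KD, or 4 without Old 2. The aging median of all 53 Rab genes (-0.0964) turned without Old 2 or Young 2. Of 14 subunits of the proton pump of vesicles and lysosomes 8 were lower with age and higher in KD (KD median 0.204, from 0.0941 to 0.41 without 1 library), or 1 without Old 2. Of the 14, 2 rose and 1 fell (14.3% and 7.14%, against 10.5% and 13.7% of all genes). Of 15 lysosome and autophagy genes 13 were opposed, or 8 without Old 3, but evenly: 7 were lower with age and higher in KD and 6 the reverse, and the KD median of 0.0376 (8 of 15 higher) turned without sh-Luc 3 or 5.

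Other families ran from higher with age to lower in libraries labelled Ftl1KD. Synaptic vesicle and release genes were higher with age in 27 of 41 (median 0.162, or 0.257 without Young 3), and in KD 17 of 26 were lower (median -0.385, -0.492 to -0.256 without 1 library). Of these 26, 6 fell and 4 rose (23.1% and 15.4%, against 13.7% and 10.5% of all genes), with 15 of 26 higher with age and lower in KD. In OE the same family was split, 22 of 41 higher (median 0.0237, or 0.0626 without GFP controls 3 and 5). That sign turned under median centring and without Ftl1OE 1, 3 or 5 or GFP control 1 or 5 (-0.0565 at the lowest without 1 library). Chromatin modifiers were lower in KD in 12 of 12 (median -0.943, 5 fell), of which 9 were higher with age, or 4 without Old 2. They summed to 183, 141, 106 and 148 under the label Ftl1KD against 342, 269, 197 and 349 in the controls, with no overlap. Kmt2a, a histone H3 lysine methyltransferase, had 6268 and 5714 against 5432, 4192 and 4686 with age (0.34). In KD it stood at 24, 14.4, 20 and 5.88 against 51, 32.7, 16.9 and 70.2 and fell by 1.33 (adjusted p = 0.0142), with sh-Luc 3 inside the Ftl1KD range. Without Ftl1KD 5, sh-Luc 1 or sh-Luc 5 its adjusted p was 0.068, 0.0525 or 0.076 (0.00141 to 0.076 over all settings). Kmt2d, another histone H3 lysine methyltransferase, had no direction with age (7554 and 3896 against 6933, 5176 and 4248, 0.02) and had 7.67, 10.8, 9.11 and 4.41 against 40.6, 7.66, 5.62 and 30.5 in KD, overlapping groups whose difference of -0.94 did not pass the test (adjusted p = 0.165).

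Ion channels and adhesion genes were few in the knockdown table, where 13.7% of all genes fell. Sodium, calcium and HCN channel genes had 23 of 33 higher with age (median 0.188, or 0.0578 without Old 2), 22 of 33 higher in OE (0.221, or 0.0423 without Ftl1OE 5) and 6 of 6 lower in KD (-1.15, 3 fell). Potassium channels had 44 of 76 higher with age (0.145, but -0.0279 without Old 2), 52 of 78 higher in OE (0.26, or 0.0608 without GFP controls 3 and 5) and 4 of 4 lower in KD (-1.53, all 4 fell). Synaptic adhesion genes had 18 of 34 higher with age (0.075, but -0.0203 without Young 2) and 8 of 8 lower in KD (-0.492, 3 fell), 6 of these higher with age. Subunits of ionotropic glutamate receptors were lower in KD in 5 of 5 (4 fell) and showed no direction with age (8 of 15 higher). The long noncoding RNAs were lower in KD in 5 of 5, and higher with age in 10 of 25. All 5 passed the test in KD, but the call of Kcnq1ot1 was lost without Ftl1KD 5 or any of the sh-Luc controls (adjusted p between 0.0525 and 0.171), with a pseudocount of 0.5 and with the replicate block.

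In 85 genes the groups overlapped in neither the aging nor the knockdown table (5.82% of 1460, close to the 5.63% for the product of the shares in the 2 tables), and 58 of these were opposed, 41 of them higher with age and lower in libraries labelled Ftl1KD. Kbtbd11 (ENSMUSG00000055675.6, plus strand of chromosome 8, 15011025 to 15033333) had 1424 and 1445 in the Old against 793, 738 and 739 in the Young libraries (0.92). In KD it stood at 6.71, 7.22, 9.11 and 5.88 against 16, 19.8, 18.7 and 23 and fell by 1.31 (adjusted p = 0.011), a call lost without sh-Luc 5 (adjusted p = 0.0524, with 0.00922 to 0.0527 over all settings). Igsf8, an immunoglobulin superfamily membrane protein, had 5546 and 6035 against 2894, 3587 and 3315 with age (0.83) and 9.59, 7.22, 21.9 and 1.47 against 34, 44.8, 35.6 and 27.2 in KD, where it fell by 2.10 (adjusted p = 0.00122). DESeq2 called both in aging, where limma did not. Pcsk1n, named above for OE, opposed aging in KD as well. It had 29.7, 37, 40.1 and 23.5 against 88.7, 76.6, 41.2 and 46.8 (-0.90, adjusted p = 0.0183). That call was lost without Ftl1KD 5, sh-Luc 1 or sh-Luc 2 (adjusted p = 0.068, 0.0811 and 0.0714, with 0.00423 to 0.0922 over all settings).

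Pdha1, the E1 alpha subunit of pyruvate dehydrogenase (ENSMUSG00000031299.10, minus strand of chromosome X, 160122209 to 160138413), was lower with age and rose in KD. It had 396 and 346 in the Old against 557, 1032 and 971 in the Young libraries (-1.15), and 32.6, 21.6, 21.9 and 29.4 under the label Ftl1KD against 6.61, 5.24, 7.49 and 4.18 in the controls (2.00 ± 0.36, adjusted p = 0.000431). Its OE difference of 0.74 turned to -0.40 without GFP controls 3 and 5, which held 218 and 388 against 1612 to 2534 in the other controls. Tcaf1, a regulator of a TRP channel, had 656 and 344 against 972, 1151 and 1188 with age (-1.21, or -0.74 without Old 3) and 13.4, 18, 23.7 and 22 against 12.3, 3.23, 1.87 and 5.85 in KD (1.79, adjusted p = 0.00908, but 0.087 with the replicate block). Vps35, of the retromer complex that returns cargo from endosomes, had 219 and 694 against 701, 813 and 981 with age (-1.08, or -0.25 without Old 2) and 17.3, 18, 16.4 and 14.7 against 13.2, 3.63, 7.49 and 4.18 in KD (1.26, adjusted p = 0.0359). The groups of all 3 genes were separate in both tables. The call of Vps35 was lost without any of Ftl1KD 1, 3, 4 or 5 or sh-Luc 2 or 5 (adjusted p between 0.0681 and 0.106, with 0.0158 to 0.172 over all settings).

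Genes in the same direction were fewer, with 17 higher in both and 10 lower in both among the 85. Ftl1 and Rpsa, given above, and Nnat led those higher in both. Nnat, neuronatin, had 941 and 1194 against 550, 580 and 667 with age (0.83) and 24, 30.7, 36.4 and 35.3 against 8.49, 16.1, 18.7 and 5.43 in KD (1.43, adjusted p = 0.00412). Those lower in both included Ip6k1, an inositol hexakisphosphate kinase, with 5642 and 8003 against 11374, 10200 and 10975 with age (-0.69, or -0.44 without Old 2) and 25.9, 20.7, 18.2 and 17.6 against 75.5, 46, 35.6 and 50.6 in KD (-1.25, adjusted p = 0.00196). Slc4a10, a sodium-driven bicarbonate transporter, had 2035 and 2174 against 3772, 2704 and 3359 (-0.63) and 9.59, 1.8, 3.64 and 0 against 22.7, 22.2, 22.5 and 25.5 (-2.82, adjusted p = 0.00168). Ogt, the enzyme that attaches O-GlcNAc to proteins, had 3878 and 6022 against 9155, 6033 and 6873 (-0.58, but -0.27 without Old 2 and -0.90 without Old 3), so that Old 3 and Young 2 nearly met, and 12.5, 12.6, 5.47 and 13.2 against 24.5, 24.6, 24.3 and 32.2 (-1.26, adjusted p = 0.00751, but 0.0852 with the replicate block).

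Neuronal markers were present throughout, with sums of 37600 and 41401 in the Old and 30835, 40359 and 39448 in the Young libraries (Syt1 the most abundant), 44591 to 65077 under the label Ftl1OE against 55929 to 79136 (Eno2), and 270 to 326 under the label Ftl1KD against 258 to 332 (Tubb3). Their direction was 6 of 10 higher with age (median 0.149, 0.0471 to 0.258 without 1 library), 2 of 10 higher in OE (-0.15, but 0.0439 without GFP control 2 and -0.38 without GFP controls 3 and 5) and 2 of 5 higher in KD (-0.0611, a sign that turned under median centring and without Ftl1KD 1, sh-Luc control 1 or sh-Luc control 5). Transcripts of glia that NeuN sorting should remove were nonetheless counted. Microglial markers summed to 571 and 1267 in the Old and 659, 1140 and 765 in the Young libraries, to 2183 to 3652 under the label Ftl1OE against 7345, 4098, 4640, 3481 and 8164 in GFP controls 1 to 5 (C1qb), and to 1.47 to 13.4 under the label Ftl1KD against 8.49 to 25. With age 7 of 13 were higher (0.176, a sign that turned without Old 3, Young 1 or Young 3) and in OE 4 of 14 (-0.988), and in KD none reached a mean of 10. In OE 5 of the 14 were lower at the nominal p (35.7%, against 3.66% of all genes). Without GFP controls 3 and 5 it was 3 of them, against 280 of all 14099 genes.

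Astrocyte markers summed to 4503 and 5561 against 7238, 6884 and 4872 with age (Slc1a2, 3 of 12 higher, median -0.366, -0.832 to -0.2 without 1 library). In OE they ran from 12254 to 55281 against 35742, 32709, 7666, 22092 and 25870 (Slc1a3, 9 of 12 higher, 0.439), lowest in GFP control 3, without which the median was -0.0634 (-0.104 without GFP controls 3 and 5), and in KD from 64.9 to 96.6 against 41.2 to 71.7 (Slc1a3, 3 of 3 higher, 0.914, Gjb6 at 0). Oligodendrocyte markers, with Mbp the most abundant, summed to 3258 and 4646 against 3162, 6993 and 5624 with age (2 of 12 higher, -0.605, but 0.0809 without Old 2), to 26653 to 44840 against 22981 to 48322 in OE (7 of 12 higher, 0.168, but -0.0321 without GFP control 3 and -0.0238 without GFP controls 3 and 5) and to 10.9 to 25.3 against 41 to 97.6 in KD (0 of 2 higher, -1.87, both fell, Aspa, Ermn and Ugt8a at 0). The call of 1 of these 2, Cnp, was made in 8 of 17 settings and lost without Ftl1KD 4 or sh-Luc 1, 2 or 3 (adjusted p between 0.0939 and 0.208, up to 0.459 over all settings). Oligodendrocyte precursor markers (Olig1) summed to 47.4 and 198 against 254, 184 and 257 with age (1 of 6 higher, -1.88, or -0.454 at the smallest without 1 library), to 1507 to 2618 against 1978 to 3591 in OE (4 of 8 higher, -0.166, but 0.269 without Ftl1OE 1) and to 17.3 to 31 against 2.93 to 16.9 in KD (1 of 1 higher, C1ql1 and Neu4 at 0). In the endothelial list almost all counts came from Bsg, which neurons also express: 4953 and 7337 against 3658 to 6527 with age (3 of 4 higher, 0.159, a sign that turned without Old 2 or Young 3, Pecam1 at 0), 10248 to 18647 against 8911 to 29470 in OE (3 of 6 higher, 0.211, but -0.0581 without GFP control 3 and -0.329 without GFP controls 3 and 5) and 31 to 46 against 32.1 to 71.8 in KD (0 of 1 higher, with Abcb1a, Flt1, Kdr, Pecam1 and Slco1a4 at 0). The part of these cells in the relations to aging was not tested.

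Among neuron classes, dentate granule cell markers (C1ql2) summed to 8038 and 11228 against 8257 to 9437 with age, 13989 to 23844 against 19501 to 25675 in OE and 35.3 to 40.3 against 65.1 to 98.8 in KD, where the groups did not overlap. They were higher in 6 of 10 with age (0.117), 8 of 10 in OE (0.0781) and 0 of 1 in KD, signs that turned with age without Old 3, Young 2 or Young 3 and in OE under median centring and without GFP control 3 or 5 (-0.34 without both). CA1 markers (Fibcd1 or Wfs1) were higher in 4 of 8 with age (0.0214, a sign that turned without Old 2 or Young 1), 5 of 8 in OE (0.184, or 0.0238 at the lowest without 1 library) and 1 of 3 in KD, and CA3 markers (Tyro3, Bok or Nnat) in 5 of 8 (0.0878, which turned without Old 3 or Young 1), 4 of 8 (0.0668, which turned under median centring and without Ftl1OE 3, GFP control 2 or GFP control 5, at -0.194 without GFP controls 3 and 5) and 1 of 1. Their sums overlapped in every comparison. Interneuron markers (Cck) were higher in 6 of 12 with age (-0.023), 6 of 12 in OE (-0.199, -0.397 to -0.0185 without 1 library) and 2 of 4 in KD (0.0689, a sign that turned without sh-Luc control 1 or 3), and their sum was 54640 in GFP control 3 against 15078 to 31947 in the other libraries of that table. Newborn neuron markers summed to 1954 and 2112 against 1986 to 3503 with age (Sox11) and were higher in 2 of 6 with age (-0.42, -0.699 to -0.171 without 1 library), 4 of 8 in OE (0.0438, which turned under median centring and without Ftl1OE 6 or GFP control 3, at -0.787 without GFP controls 3 and 5) and 1 of 1 in KD, where Tubb2b gave almost all of a sum of 144 to 157 against 26.3 to 69.3. Draxin was at 0 in the aging table and Eomes in the knockdown table. The part of cell composition in any of these differences was not tested.

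The differences were related to transcript length across genes to unlike degrees, least in aging. With length taken from GENCODE for 96.0% of the genes of the aging table, 96.1% of those of the overexpression table and 97.5% of those of the knockdown table, rho with transcript length was -0.0648 for aging, 0.27 for OE (0.0396 without GFP controls 3 and 5) and -0.381 for KD. On the same 1460 genes it was -0.0887, 0.571 and -0.381. For each library's deviation from the midpoint, rho with length was -0.277 and -0.221 in GFP controls 3 and 5, against -0.0372 to 0.237 in the other controls and -0.118 to 0.337 under the label Ftl1OE. It was -0.314 to -0.226 under the label Ftl1KD against 0.119 to 0.39 in the sh-Luc controls, groups that the midpoint sets apart. Within the shortest, middle and longest tertile of transcripts, rho of aging with OE was -0.24, -0.124 and -0.0785, and rho of aging with KD was -0.154, -0.276 and -0.285. From the least to the most abundant tertile it was -0.0759, -0.21 and -0.242 with OE and -0.222, -0.31 and -0.225 with KD. With all libraries the sign was thus negative in every tertile of length and of abundance, weakest beside OE in the scarcest genes. The tertiles were not taken without GFP controls 3 and 5 or without Old 2. Without these, rho over all shared genes turned to 0.077 with OE and to 0.0273 with KD. The part of length in the relations beyond this split was not tested.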

How the data were processed

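RNA of sorted NeuN+ nuclei was sequenced in 25 mouse libraries. According to the methods of the study, the authors used STAR for alignment to mouse mm10 transcripts, RSEM for gene counts and DESeq2 for their own comparisons. The deposited values are a signal per gene and library, namely counts divided by a size factor, and each of the 3 tables was normalized separately. Every value lay within 0.05 of a whole multiple of a step of its library (100%), and these multiples were taken as reads (the recovered reads). The annotation release is not stated.

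In each table limma 3.58.1 (trend, two-sided) was run on log2(value + 1) for the genes whose mean was 10 or more, with Benjamini-Hochberg adjustment over all genes tested and a threshold of 0.05. Differences are given ± SE from that fit. Tests across genes with edgeR 4.0.16 and DESeq2 1.42.0 on the recovered reads served as alternatives (R 4.3.3). On recovered reads DESeq2 called 138 genes in aging, 91 in OE and 348 in KD, and edgeR 0, 0 and 420. The fits were checked on simulated data, with no result of that check given here. Spearman correlations are across genes, describe only, and carry no test. Python 3.11.15 with numpy 2.4.6, pandas 2.3.3, scipy 1.17.1 and matplotlib 3.10.9 was used for the rest.

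In each pair and each combination of signs, the genes named were up to 3 whose groups overlapped in neither table, those with the largest limma t in the weaker of the 2 comparisons, so that their values are a description. In each family described, up to 2 members with the highest mean count in the aging table among those measured in all 3 tables were picked, and Ftl1 and Fth1 always. The picked members are named for the families described at most length, and the others by counts and medians alone. Of the genes picked by these rules, 4 are not reported here. The members, families and marker lists were chosen with earlier results of these data known. The authors' own comparison columns (mean, log2 fold change, its error, test statistic, p and adjusted p) were not used. Gene positions and lengths came from GENCODE M21 (GRCm38), promoter windows from RefSeq. Alternatives were another pseudocount, filter, scaling or tool, subsets of genes, a replicate block and leaving out each library.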

Additional observations from a re-analysis of the deposited data

Results flagged for a closer look

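A library lay far from the others of its group in 6 of the 80 groups of values examined. Chance alone marks about 1 group in 20. Ftl1 was at 28309 in GFP control 3, against 4580 to 9953 in the other GFP controls. Hist3h2a was at 1362 in GFP control 3, against 471 to 548. Trabd was at 1545 in Ftl1OE 5, against 710 to 797 in the rest of its group. In the knockdown table Ogt was at 5.47 in Ftl1KD 4, against 12.5 to 13.2, and at 32.2 in sh-Luc 5, against 24.3 to 24.6. Slc4a10 was at 25.5 in sh-Luc 5, against 22.2 to 22.7. The reason was not tested in any of these groups.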

How the results depend on the processing

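The negative relation between aging and OE kept its sign under every pseudocount, filter, scaling and tool and without any single library. Over the left-out libraries rho ran from -0.196 to -0.0756, with 41.6% to 46.6% in the same direction. It was -0.331 with 38.7% in the same direction on the genes of all 3 tables, and turned to 0.077 with 52.9% without GFP controls 3 and 5. That between aging and KD ranged from -0.324 to 0.0273 without 1 library (38.5% to 50.8%), and turned without Old 2 alone. With no filter it was -0.105 with 46.5%, with a mean of at least 100 it was -0.407, and without the OXPHOS subunits and ribosomal proteins it was -0.264 with 39.5%. With the fold changes of edgeR or DESeq2 42.7% were in the same direction. By length tertile rho was -0.154, -0.276 and -0.285 (49.1%, 39.0% and 37.8%), and in the middle tertile of abundance -0.31 (48.0%, 37.0% and 39.7% over the tertiles). Without the same families the median alignment of the libraries labelled Ftl1KD was -0.189. The cause was not tested.

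Calls in aging were 0 in limma and 138 in DESeq2. In OE they were 0 in limma, 91 in DESeq2 and 1 without GFP control 4 (0 to 1 without 1 library). In KD they were 354, but 18 of the 29 genes left with a mean of at least 100, and 235 to 439 without 1 library. With the replicate block they were 173 and rho with aging was -0.261 (-0.105 for OE). The numbers do not pair the libraries, since deviations of libraries with the same number did not go together. Median centring moved the KD median of all genes by 0.11 and the split of KD calls from 154 higher and 200 lower to 197 and 161. The split of OE genes at an unadjusted p of 0.05 or less, 507 higher and 516 lower, was 632 and 427 under TMM scaling, 420 and 538 under median centring, 294 and 632 in edgeR and 343 and 819 in DESeq2, whose 91 calls were 8 higher and 83 lower.

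The design holds 2 old libraries, and the deepest library of the knockdown table held 358560 reads.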
